A study of Mus musculus with 18 samples.

Results

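The genes of the pre-T cell receptor, the T cell receptor (TCR) and the recombinase that assembles it were followed through single-cell RNA-seq of mouse bone marrow hematopoietic progenitors (HP) from late gestation to adulthood. The 10 genes, Ptcra, Rag1, Rag2, Trbc1, Trbc2, Tcrg-C1, Tcrg-C2, Cd3e, Cd3d and Cd3g, were chosen by name, with earlier results of these data known, and all 10 were found among the 20275 genes of the deposited count matrix. They were read in the 20982 HP cells of 5 libraries, across the cluster names that the study deposited. The libraries held Lineage-Kit+ bone marrow (BM) cells of C57B6/J mice, with 2 libraries of E16.5 and 1 library each of E18.5, P0 and adult marrow. Fetal and newborn marrow came from the skeleton without the bones of the head, adult marrow came from selected long bones, pelvis and spine, and each library pooled several mice. The antibodies used to remove mature lineages in progenitor sorts included CD4 and CD8 but not CD3, so cells with a CD3 complex and neither coreceptor were not removed by those antibodies. The matrix holds unique molecular identifiers (UMIs) counted at the 3′ ends of transcripts, and levels are given as counts per 1000000 UMIs (CPM) of cells summed within a library or cluster. Intervals are exact 95% intervals that cover counting error only, and levels are compared between cells for 1 gene, not between genes.

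The libraries differed in size and depth. They held 560 cells (first E16.5 library), 4752 cells (second E16.5 library), 3477 cells (E18.5), 6208 cells (P0) and 5985 cells (adult), with total UMIs between 13974733 and 127489333 and a median of 6747 to 23292 UMIs per cell. Some cell barcodes were present in more than 1 library: 333 of 560 cells (59.5%) of the first E16.5 library, 21 cells (0.442%) of the second, and 387 (11.1%), 240 (3.87%) and 708 (11.8%) of the E18.5, P0 and adult libraries. How far the copies differed in depth varied between pairs of libraries. For the 225 barcodes shared by P0 and adult the medians were 600 and 859 UMIs. For the 330 barcodes shared by the first E16.5 and adult libraries they were 30840 and 668. The shallower copy of a shared barcode was in the first E16.5 library for 1 cell. It was in the second E16.5, E18.5, P0 and adult libraries for 8, 88, 219 and 644 cells. The levels of the first E16.5 library that later paragraphs turn on are also given without its cells of shared barcodes, which leaves out mostly deeper copies. The shares and marker sums of that library include them. The cells the study placed in T cell clusters (TCell1 to TCell6 and, in the adult, T/NK) numbered 18, 2141, 65, 68 and 109 in the order above, of which 9, 9, 1, 0 and 2 had a shared barcode.

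During T cell development the RAG1 and RAG2 proteins form the recombinase that cuts variable, diversity and joining segments of antigen receptor genes, in B cell as well as T cell precursors. A rearranged TCR beta chain, whose constant part is encoded by Trbc1 or Trbc2, first pairs with the invariant pre-T alpha chain encoded by Ptcra, and this pre-TCR signals before a TCR alpha chain is made. Gamma delta T cells instead use gamma chains, with constant parts from genes such as Tcrg-C1 and Tcrg-C2. Both receptors reach the surface and signal only with CD3 chains. These are encoded by Cd3e, Cd3d and Cd3g, and a receptor need not hold all of them. Constant genes can be transcribed before their locus is rearranged, so a constant-region UMI does not show a finished receptor.

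Several of these genes lie beside each other. In the mm10 build, Rag1 (chr2:101638282-101649501, minus strand) and Rag2 (chr2:101624718-101632529, plus strand) converge with 5.75 kb between them. Cd3g (chr9:44969572-44980431, minus strand) and Cd3d (chr9:44981786-44987339, plus strand) start back to back with 1.35 kb between them, and Cd3e (chr9:44998740-45009627, minus strand) lies 11.4 kb from Cd3d. Trbc1 (chr6:41538218-41539881) and Trbc2 (chr6:41546730-41548352) lie on the plus strand with 6.85 kb between them. Tcrg-C1 (chr13:19214103-19217024, plus strand) and Tcrg-C2 (chr13:19304649-19307551, minus strand) are 87.6 kb apart, and Ptcra is at chr17:46755663-46763712 on the minus strand.

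The 250 bases before the start of 4 genes are shown because Ptcra, Rag1, Rag2 and Cd3g were among the genes that passed a test of stage in T cell clusters, given later. Promoters of 6 of the 10 genes were matched by symbol in RefSeq (GRCm38.p6). Capitals mark the E-box letters CAGCTG and CACCTG, which E proteins are known to bind, and TGTGGT, which RUNX factors are known to bind. They were searched on both strands with each position counted once. Among the 32851 promoter windows of the same length, 13% held CAGCTG, 17.2% held CACCTG and 14% held TGTGGT. The GATA letters AGATAA, held by 9.99% of windows, were also searched and are not in capitals.
Ptcra, chr17:46763713-46763962, minus strand: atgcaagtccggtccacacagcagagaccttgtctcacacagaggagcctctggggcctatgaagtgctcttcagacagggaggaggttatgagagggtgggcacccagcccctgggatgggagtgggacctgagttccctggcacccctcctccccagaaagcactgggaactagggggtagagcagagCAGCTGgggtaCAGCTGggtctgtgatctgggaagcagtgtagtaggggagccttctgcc
Rag1, chr2:101649533-101649782, minus strand: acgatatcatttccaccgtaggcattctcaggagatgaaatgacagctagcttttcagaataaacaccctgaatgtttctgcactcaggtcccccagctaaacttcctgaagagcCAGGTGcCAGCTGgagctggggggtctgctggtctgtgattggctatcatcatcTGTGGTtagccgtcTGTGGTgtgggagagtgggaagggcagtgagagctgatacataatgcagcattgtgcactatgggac
Rag2, chr2:101624462-101624711, plus strand: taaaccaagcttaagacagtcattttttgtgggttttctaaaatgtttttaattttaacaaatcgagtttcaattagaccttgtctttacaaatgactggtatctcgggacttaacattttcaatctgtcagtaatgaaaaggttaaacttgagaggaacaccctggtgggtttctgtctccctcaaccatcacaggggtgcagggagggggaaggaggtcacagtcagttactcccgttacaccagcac
Cd3g, chr9:44980432-44980681, minus strand: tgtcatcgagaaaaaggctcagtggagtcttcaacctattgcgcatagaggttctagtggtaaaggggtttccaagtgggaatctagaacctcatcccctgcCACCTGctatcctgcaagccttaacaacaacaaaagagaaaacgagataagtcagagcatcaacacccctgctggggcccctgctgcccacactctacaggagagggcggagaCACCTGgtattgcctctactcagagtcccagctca

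The Ptcra window held 2 CAGCTG matches, which began 60 and 49 bases before the start. The Rag1 window held 1 CAGCTG, 1 CACCTG (on the other strand) and 2 TGTGGT matches, and the Cd3g window held 2 CACCTG matches and 1 AGATAA match. None of these letters were found in the Rag2 window or in the Cd3e window, and the Cd3d window held 1 CACCTG. These matches are descriptions of the letters only.

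The Trbc1 and Trbc2 coding sequences are near-identical, so how far the 2 genes could be told apart was read from the mm10 sequence. Of 518 coding bases 95.6% were the same, with 1 difference in the 375 coding bases of exon 1, 3 in the 18 of exon 2, 15 in the 107 of exon 3 and 4 in the 18 coding bases of exon 4. After the stop codon, where 3′ reads mostly fall, 65.7% of 169 aligned bases were the same. Tcrg-C1 and Tcrg-C2 were closer, with 97.4% of 500 coding bases and 94.4% of 409 aligned bases after the stop codon the same, and their split is the less certain. Exon 3 is printed with the differing bases in capitals (chr6:41539229-41539335 and chr6:41547772-41547878, plus strand).
Trbc1 exon 3: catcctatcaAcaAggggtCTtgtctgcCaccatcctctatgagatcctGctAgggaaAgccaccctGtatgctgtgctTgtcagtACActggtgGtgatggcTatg
Trbc2 exon 3: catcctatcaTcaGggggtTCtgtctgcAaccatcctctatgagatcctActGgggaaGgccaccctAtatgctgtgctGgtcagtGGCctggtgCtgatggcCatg

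All 10 genes were highest in the second E16.5 library when all HP cells of a library were summed. In what follows the 5 levels of a gene are given in the order first E16.5 library, second E16.5 library, E18.5, P0 and adult. Ptcra was at 0.143, 140.8, 1.56, 2.06 and 1.42 CPM, where the first value rests on 2 counts. Rag1 was at 9.52, 86.3, 10.6, 10.5 and 11.5 CPM, and Rag2 was at 4.22, 33.6, 6.12, 4.72 and 6.49 CPM. The second E16.5 library stood alone for each of these genes, and the recombinase genes were the least uneven of the 10, between 5.19-fold and 9.07-fold higher there than in any other library.

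The TCR constant genes were also uneven. Trbc1 was at 36.1, 667.6, 24.3, 12.4 and 4.36 CPM, and Trbc2 was at 30.2, 1432, 63.9, 42.6 and 3.23 CPM. Tcrg-C1 was at 3.22, 336.3, 4.67, 8.02 and 1.06 CPM, and Tcrg-C2 was at 0.215, 224.1, 0.987, 0.706 and 0.169 CPM. Tcrg-C2 had 3 counts in the whole of the first E16.5 library and 21473 in the second. All 4 constant genes were lowest in the adult. The adult interval overlapped none of the earlier ones for Trbc1, Trbc2 and Tcrg-C1, while for Tcrg-C2 it overlapped that of the first E16.5 library.

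The CD3 genes followed. Cd3e was at 0.716, 165.1, 2.07, 0.580 and 0.507 CPM, Cd3d was at 3.08, 335.4, 5.72, 2.22 and 1.94 CPM, and Cd3g was at 19.0, 1332, 9.59, 3.86 and 1.03 CPM. Cd3e and Cd3d had overlapping intervals at P0 and in the adult, and Cd3e of the first E16.5 library overlapped both. Over the 10 genes, the second E16.5 library exceeded the first by a median of 85.5-fold (range 7.97 to 1044), E18.5 by 65.0-fold (5.495 to 227), P0 by 60.7-fold (7.12 to 345) and the adult by 233.6-fold (5.19 to 1327). The 2 libraries labelled as the same stage were thus further apart in the median than the second E16.5 library was from E18.5 or P0. Without any cell of a shared barcode the second library was still the highest for 10 of 10 genes, and its median ratio to the next highest library was 37.7 in place of 50.3. In the first E16.5 library Rag1 was then at 24.9, Trbc2 at 57.9 and Tcrg-C1 at 10.8 CPM. Without the T cell clusters that median ratio was 12.4, again with 10 of 10 genes highest there.

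**Figure D1:**
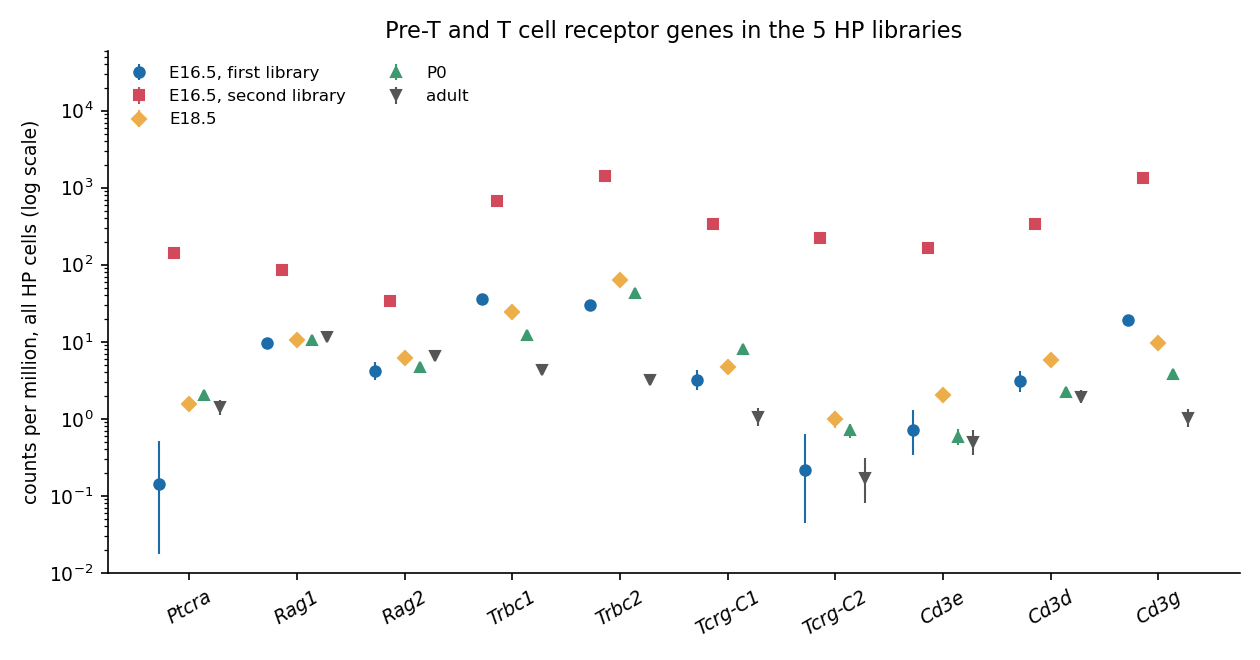
Level of each of the 10 genes in the 5 HP libraries, as CPM of all cells summed on a log axis, with bars for exact 95% counting intervals. The second E16.5 library lies above the other 4 for every gene, by the least for Rag1 and Rag2.

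In a sum over a library, fewer cells of a type and less RNA per cell cannot be told apart. The test of stage on these sums used edgeR's quasi-likelihood fit over 16114 genes, in which the spread comes from the 2 E16.5 libraries and the lone libraries are assumed to vary like them. The animals were pooled and the later stages were not repeated, so p-values measure only the spread between these libraries. None of the 10 genes passed at E18.5, beside 0.00621% of all genes tested, none at P0, beside 0.292%, and none in the adult, beside 2.35%. All 10 log2 fold changes were below 0 in each contrast, with medians of −5.18, −5.02 and −6.75 beside medians over all genes of −0.00, 0.02 and 0.01. At an unadjusted p under 0.05 there were 2, 4 and 7 of the 10 genes, beside 6.50%, 8.49% and 15.3% of all genes. DESeq2 on the same sums called 0, 0 and 2, beside 2.12%, 3.46% and 7.03% of all genes. Without the filter on low counts edgeR called 9 of the 10 lower in each contrast, beside 2.48%, 3.65% and 7.75% of all genes. The direction rested on the second E16.5 library, since without it the medians were 0.63, 0.14 and −0.42, with 2, 4 and 7 of 10 genes below 0.

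Within the second E16.5 library the T cell clusters differed in which of the 10 genes they held. Ptcra was at 599 CPM in TCell4 (296 cells) and 526 in TCell1 (539 cells), then at 213 in TCell6 (153 cells), 80.2 in TCell3 (481 cells), 51.1 in TCell2 (486 cells) and 4.47 in TCell5 (186 cells). Each neighbouring pair in this order of T cell clusters had non-overlapping counting intervals. Rag1 was at 335 CPM in TCell1 and 315 in TCell4, whose intervals overlapped. It was at 93.8 in TCell6, 54.4 in TCell3, 42.1 in TCell2 and 2.23 in TCell5. Rag2 was at 106, 73.9, 34.1, 49.0, 37.6 and 0.745 CPM in TCell1, TCell4, TCell6, TCell3, TCell2 and TCell5. The pre-TCR and recombinase genes were therefore highest in the same pair of clusters and near background in TCell5, with 12, 6 and 2 counts of Ptcra, Rag1 and Rag2 among its 186 cells.

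The CD3 genes split the same clusters differently. Cd3d was at 1264 CPM in TCell4, 1044 in TCell1 and 967 in TCell6, but at 218 in TCell3, 136 in TCell2 and 251 in TCell5. Cd3e was at 497 and 472 CPM in TCell1 and TCell4, 281 in TCell6, 205 in TCell3, 154 in TCell2 and 84.2 in TCell5. Cd3g was at 3332 and 3269 CPM in TCell4 and TCell1, 2242 in TCell3, 1848 in TCell2, 1430 in TCell6 and 1053 in TCell5. Between TCell1 and TCell2, Cd3d thus differed by a larger ratio than Cd3g, and TCell5 stood above TCell2 and TCell3 in Cd3d while it was the lowest of the 6 in Cd3e and Cd3g. These clusters were made from the same counts, so the differences between them are descriptions with no test.

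Trbc1, Trbc2 and Tcrg-C1 were spread more evenly over the 6 clusters than the CD3 genes, and Tcrg-C2 was not. Trbc1 was highest in TCell6 at 1763 CPM and between 1051 and 1262 in the other 5. Trbc2 was at 2792, 2778 and 2725 CPM in TCell2, TCell3 and TCell6, whose intervals overlapped in order, then at 2399 in TCell1, 2187 in TCell4 and 1371 in TCell5. Tcrg-C1 was highest in TCell3 at 792 CPM and lowest in TCell5 at 306. Tcrg-C2 was between 425 and 478 CPM in TCell1 to TCell4, at 280 in TCell6 and at 43.9 in TCell5. TCell5 was again the cluster apart, and Tcrg-C2 made up 12.5% of its Tcrg-C1 and Tcrg-C2 counts, beside 35.9 to 48.2% in the other 5.

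**Figure D2:**
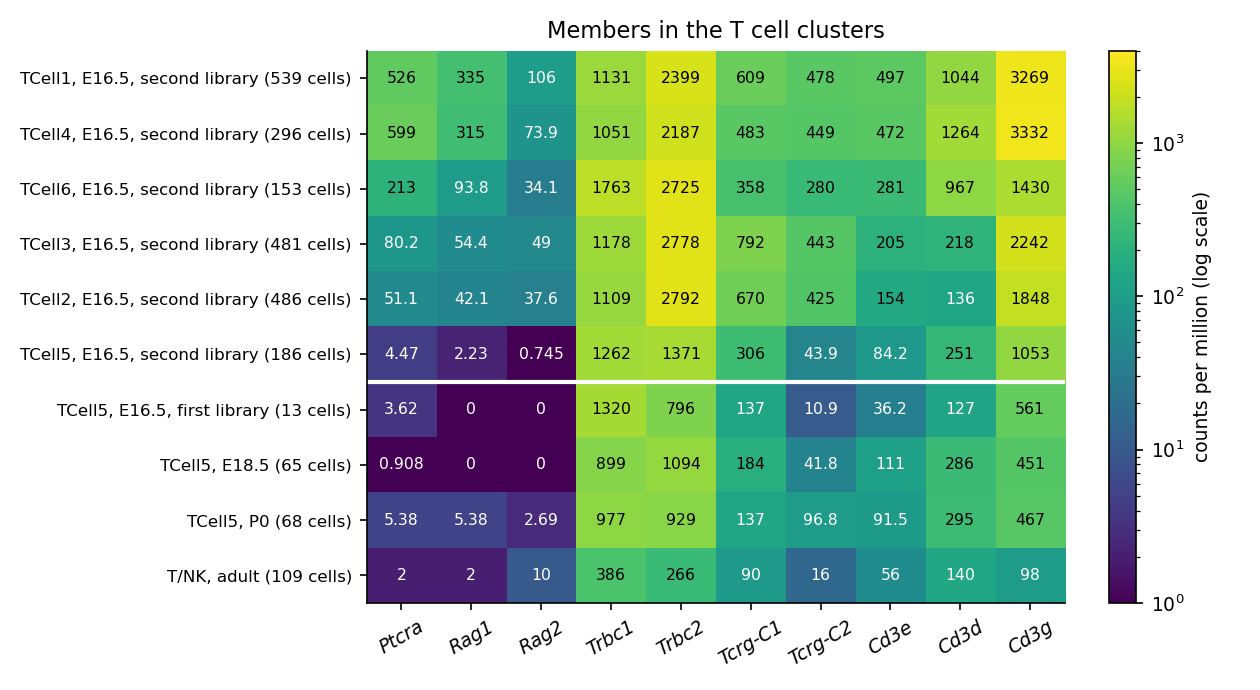
Heat map of the 10 genes in the T cell clusters, with colour for CPM on a log scale from 1 to 4000 (values under 1 take the lowest colour). TCell1 and TCell4 hold the highest Ptcra, Rag1 and Rag2, and every TCell5 row and the adult T/NK row are at or under 10.0 CPM for these 3 genes.

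TCell5 was the 1 T cell cluster with cells in both E16.5 libraries, at E18.5 and at P0 (13, 186, 65 and 68 cells). In that order Trbc1 was at 1320, 1262, 899 and 977 CPM, and Trbc2 was at 796, 1371, 1094 and 929 CPM. Tcrg-C1 was at 137, 306, 184 and 137 CPM and Tcrg-C2 at 10.9, 43.9, 41.8 and 96.8 CPM. Cd3e was at 36.2, 84.2, 111 and 91.5 CPM, Cd3d at 127, 251, 286 and 295 CPM, and Cd3g at 561, 1053, 451 and 467 CPM. Ptcra, Rag1 and Rag2 together had 1 count in the 13 cells of the first E16.5 library, 1 in the 65 cells at E18.5 and 10 in the 68 cells at P0. Over the 8 genes with a ratio, the second E16.5 library was 1.93-fold higher than the first in the median and 1.33-fold higher than E18.5, and over all 10 genes it was 0.886-fold of P0. Without its cells of shared barcodes, 7 cells were left of TCell5 in the first library, with Trbc1 at 779, Trbc2 at 736, Cd3d at 70.0 and Cd3g at 412 CPM. Tcrg-C1 was then at 226 CPM over the 9 cells left in all T cell clusters of that library.

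A test on TCell5 alone, chosen after the data were seen, called 0 of the 7 constant and CD3 genes at E18.5, where 0.773% of 8796 genes were called, and 0 at P0, where 0.750% were called (edgeR quasi-likelihood). Ptcra, Rag1 and Rag2 had too few counts to be fitted. At an unadjusted p under 0.05 there were 0 and 1 of the 7, beside 5.04% and 4.68% of all genes, and the median log2 fold changes were 0.07 and −0.22. Tcrg-C2 at P0 had the smallest p of the 7, with a log2 fold change of 1.5 ± 0.48 (SE) and an adjusted p of 0.17.

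In the sum of all T cell clusters, 3 of the 10 genes passed the same edgeR test at E18.5, where 1.74% of the 8584 genes tested were called. They were Ptcra, with a log2 fold change of −7.23 ± 1.11 (SE) and an adjusted p of 4.19e-08, Rag1 (adjusted p 2.62e-08) and Rag2 (adjusted p 4.85e-05). The counts behind these calls were uneven within E16.5 itself. Ptcra had 1, 12200, 1, 4 and 1 counts in the T cell clusters of the 5 libraries, or 2.49, 248, 0.908, 5.38 and 2.00 CPM. Rag1 had 0, 7301, 0, 4 and 1 counts and Rag2 had 0, 2853, 0, 2 and 5. The first E16.5 library was like the later stages for these genes, so the calls rested on the second library. These 3 genes could be fitted only with that library. Their p-values, here and in the later contrasts, therefore do not separate a stage from that 1 library.

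The Rag1 level of the second E16.5 library in T cell clusters, 149 CPM, was at least 54.6-fold higher than at E18.5 and at least 19.9-fold higher than in the first E16.5 library, against a floor of 3 counts. For Rag2, at 58.1 CPM, these bounds were 21.3-fold and 7.77-fold. At P0 the same 3 genes passed, where 1.13% of genes were called: Ptcra by −4.72 ± 0.90 (edgeR adjusted p 5.86e-05), Rag1 by −4.01 ± 0.87 (adjusted p 0.000837) and Rag2 by −3.76 ± 1.03 (adjusted p 0.027). In the adult T/NK cluster 4 genes passed, where 3.17% were called: Ptcra by −5.93 ± 1.11 (edgeR adjusted p 1.12e-05), Rag1 by −5.23 ± 1.09 (adjusted p 0.00017), Tcrg-C2 by −3.64 ± 0.87 (adjusted p 0.00201) and Cd3g by −3.69 ± 0.83 (adjusted p 0.000734). Trbc2 missed the threshold there, with a log2 fold change of −2.40 and an adjusted p of 0.0507. Median log2 fold changes of the 10 genes were −1.33, −1.36 and −2.14, beside −0.05, −0.03 and −0.09 over all genes.

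DESeq2 on the same sums called none of the 10 in any contrast, beside 0.186%, 0.175% and 0.746% of all genes. It had 1, 0 and 1 of them at an unadjusted p under 0.05, beside 1.89%, 1.34% and 4.93%. Without the second E16.5 library 7 of the 10 genes could be fitted, none with a test, and 0, 0 and 3 of them were below 0. Among the genes called in the adult, Tcrg-C2 was then at 1.33 and Cd3g at −1.65 on the log2 scale, and Ptcra and Rag1 could not be fitted. Cluster makeup moved with these values: the first E16.5 library, E18.5 and P0 had mainly or only TCell5 cells among their T cell clusters, and the adult had only T/NK. The part of cluster makeup in the calls of Ptcra, Rag1 and Rag2 was not tested, since the TCell5 fit did not hold these genes.

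The constant and CD3 genes were read in the T cell clusters of every library. In the T cell clusters Trbc1 was at 909, 1194, 899, 977 and 386 CPM, Tcrg-C1 at 97.2, 616, 184, 137 and 89.97 CPM, Cd3e at 24.9, 293, 111, 91.5 and 56.0 CPM, and Cd3d at 87.2, 591, 286, 295 and 140 CPM. Trbc2 was at 548, 2538, 1094, 929 and 266 CPM, Tcrg-C2 at 7.48, 410, 41.8, 96.8 and 16.0 CPM, and Cd3g at 386, 2381, 451, 467 and 97.97 CPM. The second E16.5 library was again the highest for each, by 1.31-fold over the first for Trbc1. The adult T/NK cluster was the lowest for Trbc1, Trbc2 and Cd3g, with intervals clear of every other library. For Tcrg-C1, Tcrg-C2, Cd3e and Cd3d the first E16.5 and adult libraries were the lowest pair, with overlapping intervals. Without shared barcodes, 9 T cluster cells of the first library were left, with Trbc1 at 720, Trbc2 at 679, Tcrg-C1 at 226, Tcrg-C2 at 8.09, Cd3e at 24.3, Cd3d at 64.7 and Cd3g at 380 CPM, so that its low Tcrg-C1 was lost.

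Shares of cells with a UMI were compared at equal depth. With every cell thinned to 1000 UMIs, the second E16.5 library's T cell clusters (2141 cells) had a UMI of Trbc2 in 85.3%, Cd3g in 76.5%, Trbc1 in 61.1%, Tcrg-C1 in 37.4%, Cd3d in 37.0%, Tcrg-C2 in 27.7%, Cd3e in 24.8%, Ptcra in 20.6%, Rag1 in 13.7% and Rag2 in 5.51%. Mast cell clusters of that library, taken as cells that should lack these genes, had Cd3g in 5.32%, Trbc2 in 3.94%, Trbc1 in 2.22%, Rag1 in 0.333% and Ptcra in 0.222% of 1803 cells, with a median of 16625 UMIs before thinning beside 21983. All 10 genes were thus above that background in T cell clusters. The background was uneven over cells. Without thinning, 52 of 869 Mast1, 14 of 499 Mast2i and 8 of 436 Mast2ii cells held 5 or more of the 10 genes. In the first E16.5 library mast cell clusters held 84 of 266 Cd3g counts, or 4 of 53 without shared barcodes. At E18.5 they had Cd3g in 1.86% of thinned cells, beside 0.174% in the clusters that are neither T nor mast cell clusters.

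In the other libraries Ptcra was seen in 0 of 18, 65, 68 and 108 thinned T cluster cells, which allows shares of up to 16.7%, 4.62%, 4.41% and 2.78% at this depth (3 cells of the total). Without thinning 1 cell in each of these libraries had a Ptcra UMI. Trbc1 was seen in 38.9%, 50.8%, 52.9% and 23.1% of those cells of the first E16.5, E18.5, P0 and adult libraries, and Trbc2 in 44.4%, 53.8%, 51.5% and 20.4%. Cd3g was seen in 33.3%, 35.4%, 35.3% and 10.2%. The first E16.5 share of Trbc2 has an interval of 21.5 to 69.2%, which overlapped that of the adult (13.2 to 29.2%), so for Trbc2 only the second E16.5 library stood clear of all others. For Trbc1 the interval of the second library (59.0 to 63.2%) overlapped all but that of the adult. Within the second library Ptcra was seen in 45.3% of TCell4, 39.7% of TCell1, 19.6% of TCell6, 8.32% of TCell3, 4.73% of TCell2 and 0 of 186 TCell5 cells.

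Single cells often held several of the genes. At 1000 UMIs, 126 of 2141 cells (5.89%) had both Ptcra and Rag1, where the product of the separate shares is 2.83%. Within TCell1 this was 15.8% beside 12.0%, a smaller ratio. A beta and a gamma constant gene were seen together in 50.9% of cells, beside 49.7% from the separate shares, and the share was 17.7% in TCell5 and 52.5% in TCell1. All 3 CD3 genes were seen in 22.4% of TCell1, 26.0% of TCell4, 3.09% of TCell2 and 2.15% of TCell5 cells. In TCell2, 36.4% of cells had none of the 3 at this depth, beside 2.23% in TCell1.

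Outside the T cell clusters, Rag1 and Rag2 were read in B cell clusters at every stage. Rag1 was at 209 CPM in the B cell cluster of the first E16.5 library and 101 in that of the second, at 121 in Bcell1 at E18.5, at 176 in Bcell1 and 420 in BCell2 at P0, and at 463 in Pre/Pro-B2, 137 in Bcell3, 46.2 in Bcell4 and 45.2 in Pre/Pro-B1 of the adult. Adult Pre/Pro-B2 (246 cells) and P0 BCell2 (61 cells) were the highest Rag1 sums of all clusters, followed by TCell1. The interval of BCell2 overlapped those of both Pre/Pro-B2 and TCell1. Rag2 was highest in the same adult cluster at 152 CPM. TCell1, P0 BCell2 and the first E16.5 library's Bcell1 followed at 106, 90.7 and 89.5 CPM, with overlapping intervals between neighbours. In the first E16.5 library 126 of the 133 Rag1 counts (94.7%) came from its 28 B cluster cells. Without shared barcodes, 12 of these cells were left, which held all 74 remaining Rag1 counts at 450 CPM, with Rag2 at 97.2 CPM.

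These B cell clusters held little Cd3e or Ptcra. Cd3e had 0 counts in 7 of the 9 B cluster sums, 6 in the second E16.5 library and 1 in adult Pre/Pro-B1. Ptcra had 0 counts in 4 of them and between 1 and 16 in the rest. Rag1 plotted against Cd3e therefore has 2 arms, 1 of B cell clusters with Rag1 and little Cd3e, and 1 of T cell clusters where Cd3e is high with Rag1 either high or near 0. Across the 81 library and cluster sums of at least 20 cells, Pearson's r of log2(CPM + 1) was 0.43 between Rag1 and Cd3e and 0.51 between Rag1 and Ptcra. These sums share libraries, depth and the clustering itself.

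**Figure D3:**
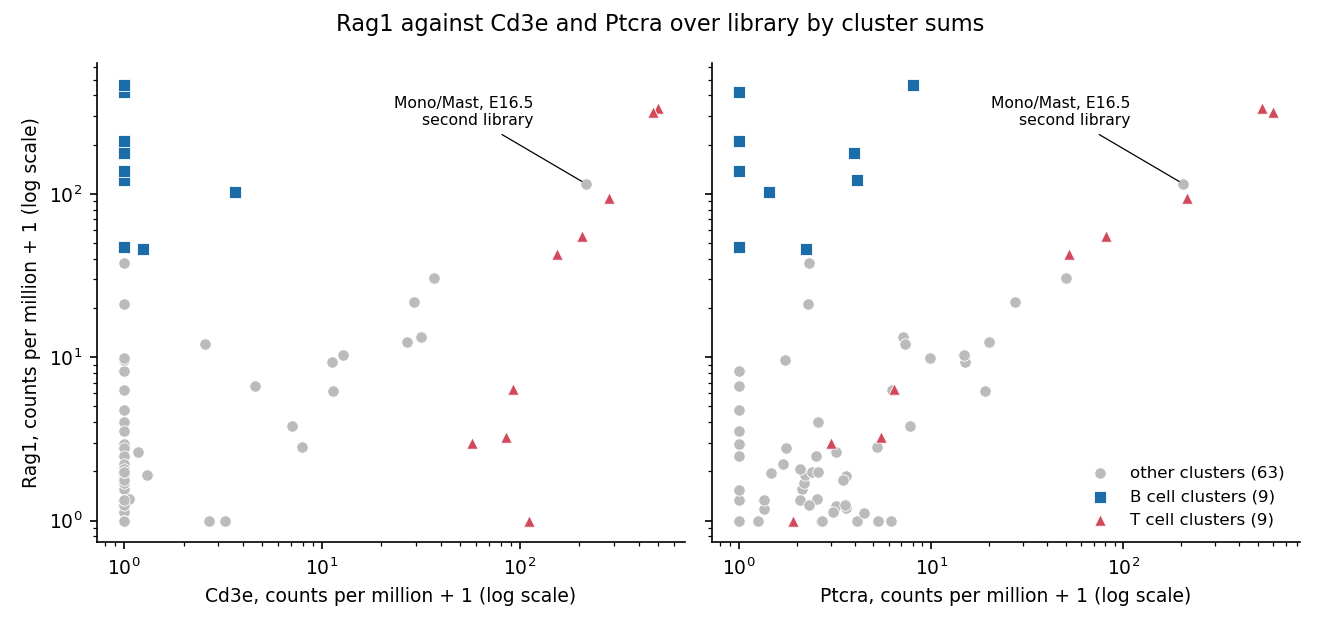
Rag1 against Cd3e (left) and against Ptcra (right), all as CPM + 1 on log axes, in 81 sums of 1 cluster in 1 library (9 B cell sums as blue squares, 9 T cell sums as red triangles and 63 others in grey, with Mono/Mast of the second E16.5 library named). B cell clusters lie high in Rag1, at or near 0 in Cd3e and low in Ptcra, while T cell clusters lie high in Cd3e and those with more Ptcra have more Rag1.

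Some progenitor clusters held Rag1 at lower levels. P0 lymphoid progenitors (LymP, 388 cells) were at 36.8 CPM for Rag1 and 21.5 for Rag2, with a Rag1 UMI in 23.5% of cells, or in 2.84% at 1000 UMIs beside 0 of 287 mast cluster cells. HSPC2 at E18.5 was at 20.05 and 13.7 CPM, and HSPC5 in the adult at 8.62 and 11.7 CPM. HSPC1 was at 20.9 CPM of Rag1 in the second E16.5 library, beside up to 11.3 in its mast cell clusters. Ptcra, Cd3e, Cd3d and Cd3g were at 26.2, 28.1, 39.6 and 167 CPM there, beside 19.05, 25.8, 52.8 and 206 in Mast1. The CD3 genes of HSPC1 were thus not told apart from the levels of Mast1, which is not free of cells with these genes. HSPC1 was at 7.19 CPM of Rag1 in the first library, where without shared barcodes it had 0 counts. At P0 the HSPC2, HSPC3 and HSPC4 clusters were at 0.192, 0.251 and 2.99 CPM. In LymP, Cd3e had 0 counts, Cd3d 1, Cd3g 13 and Ptcra 8, so the recombinase genes were read there without the CD3 genes.

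Trbc2 was also read widely outside T cell clusters, with far less Trbc1. HSPC1 of the second E16.5 library was at 1107 CPM of Trbc2 with a UMI in 60.6% of its 165 cells, and at 204 CPM of Trbc1. HSPC1 of the first E16.5 library was at 156 CPM of Trbc2 (33 cells), or 221 without shared barcodes (13 cells with 40 counts of Trbc2 and 0 of Trbc1). HSPC2 at E18.5 was at 183 CPM, P0 LymP at 367 CPM with a UMI in 73.7% of cells, and UD1, an undetermined cluster of the second E16.5 library, at 898 CPM with 92.1%. At 1000 UMIs these shares were 33.9% in HSPC1 and 48.7% in UD1 of the second E16.5 library, beside 3.94% of its mast cluster cells, and 25.8% in P0 LymP, beside 2.09%. UD1 had 9 of 9 T cell markers detected, which summed to 739 CPM. It also had 2752 CPM over 8 markers of innate lymphoid cells and 24288 CPM over 9 mast cell markers. For Trbc2, Bcell1 was at 43.1 CPM in the first E16.5 library, 115 in the second, 101 at E18.5 and 122 at P0. In the second E16.5 library the mast cell clusters spanned 40.1 to 184 CPM, and its Bcell1 lay within that range. Its Trbc1, at 24.1 CPM, was also within their 23.3 to 94.5 CPM. Its Cd3e, Cd3d and Cd3g, at 2.63, 4.38 and 15.3 CPM, were below all of them (at least 6.10, 14.5 and 62.2 CPM). Its Trbc2 was thus not told apart from mast cluster levels, though those clusters held more CD3 gene RNA. Of the 4 adult B cell clusters 3 had 0 counts of Trbc2 and Pre/Pro-B1 had 17 (4.17 CPM). Trbc2 in Bcell1 was thus higher than in the adult B cell clusters at E18.5 and P0, where mast cell clusters summed to 7.85 and 19.0 CPM.

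The share of Trbc1 among Trbc1 and Trbc2 counts set these clusters apart. It was 1.05% in Bcell1 at P0 (interval 0.424 to 2.16%), 1.91% in Bcell1 at E18.5, 5.11% in HSPC1 of the first E16.5 library, 5.52% in HSPC2 at E18.5, 8.97% in P0 LymP and 15.6% in HSPC1 of the second. It was 28.4 to 39.3% in TCell1 to TCell4 and TCell6, 45.1 to 62.4% in TCell5 of the 4 libraries and 59.2% in T/NK. Mast cell clusters of the second E16.5 library, with lower CPM of both than its T cell clusters, were at 32.4 to 40.0%, beside 32.1% in TCell1. HSPC1 of that library lay below them with an interval of 14.5 to 16.7%.

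A few myeloid clusters had the opposite split. Eos/Bas1 had 124 counts of Trbc1 and 3 of Trbc2 in 18 cells of the first E16.5 library, or 372 CPM and 97.6% Trbc1, and 367 CPM and 70.1% Trbc1 in 79 cells of the second. Without shared barcodes, 8 Eos/Bas1 cells of the first library were left, at 190 CPM. Mast3 was at 66.9 CPM of Trbc1 at E18.5, with a UMI in 25.9% of 162 cells and 89.5% Trbc1, and at 77.5 CPM at P0, with a UMI in 18.8% of 260 cells and 80.6% Trbc1. At 1000 UMIs the shares of Mast3 cells with Trbc1 were 6.83% and 6.54%, beside 0.392% and 0.5004% in the clusters that are neither T nor mast cell clusters. In the first E16.5 library Mast1, Mast2i, Mast2ii and Mono/Mast together had 0 counts of Trbc1, so this was not shared by all mast cell clusters.

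**Figure D4:**
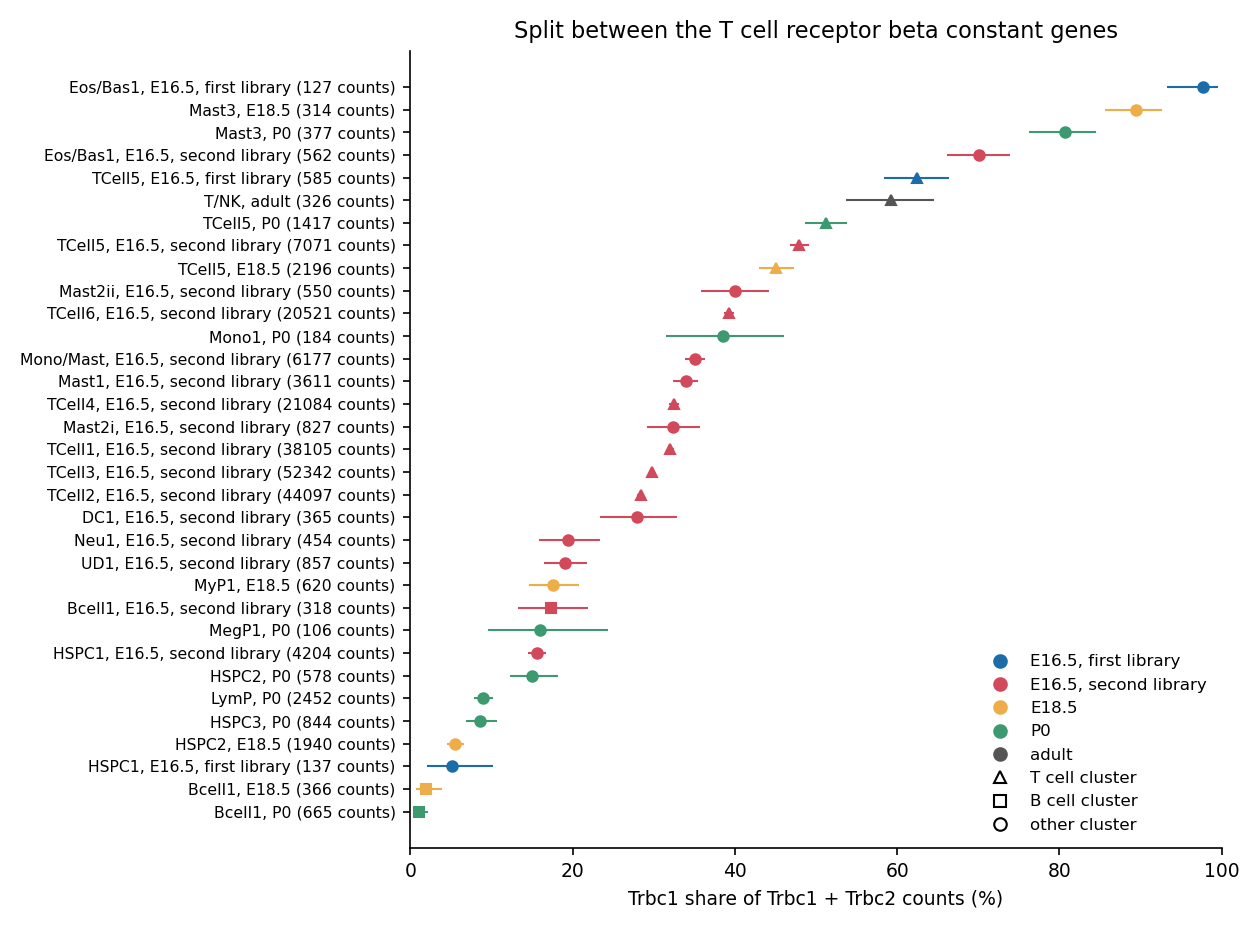
Share of Trbc1 among Trbc1 and Trbc2 counts (percent, with exact 95% intervals) in clusters with at least 100 such counts. B cell and progenitor clusters lie lowest, T cell clusters between 28.4 and 62.4%, and Eos/Bas1 and Mast3 highest.

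Tcrg-C1 was read without Tcrg-C2 in erythroid, megakaryocyte and eosinophil progenitors at P0. It was at 43.6 CPM in EosP (11.8% of 110 cells), 27.4 CPM in MegP1 (20.1% of 686 cells) and 16.0 CPM in EryP1 (21.1% of 465 cells), with medians of 15073, 23062 and 37938 UMIs per cell. At 1000 UMIs the shares were 2.83%, 2.77% and 1.72%, beside 0 of 287 mast cluster cells (interval up to 1.28%), and of these intervals only that of MegP1 (1.68 to 4.29%) lay above it. EosP and MegP1 had 0 counts of Tcrg-C2. T cell clusters of the second E16.5 library, in contrast, had 616 and 410 CPM of the pair. At P0 these clusters, with 448, 275 and 81 counts in MegP1, EryP1 and EosP, held most of the 1022 Tcrg-C1 counts of the library.

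Ptcra was read at a low level in most clusters from E18.5 on. Outside the T cell clusters it was at 1.57 CPM at E18.5 (100 counts), 2.04 at P0 and 1.41 in the adult, and it was seen in 12 of 18, 15 of 19 and 12 of 17 clusters. Of the cells outside T cell clusters 1.52%, 2.22% and 0.664% had a Ptcra UMI, beside 1.23%, 0.375% and 0.312% in mast cell clusters alone. These shares are at unlike depth, with medians of 25714, 1498 and 719 UMIs per mast cluster cell. At P0, 208 of the 274 cells of Mast4 were the shallower copy of a shared barcode. So were 185 of 201 cells of Mast4i and 76 of 120 of Mast4ii, the mast cell clusters of the adult. At 1000 UMIs the clusters that are neither T nor mast cell clusters had Ptcra in 0.0872%, 0.250% and 0.104% of cells. The mast cell clusters had 0 of 161, 287 and 69, with intervals that reach above those shares. Mast4 gave 27 of the 287 cells at P0, and Mast4i and Mast4ii gave all 69 in the adult. Expression was thus not told apart from background by share, though single cells outside T cell clusters held up to 10, 11 and 14 Ptcra UMIs. The T cell clusters of the E18.5, P0 and adult libraries (65, 68 and 109 cells) had 1, 4 and 1 Ptcra counts, at most 1.53% of the library's total. Per UMI they were at 0.908, 5.38 and 2.00 CPM, which rest on those few counts. The first E16.5 library had 1 count outside its T cell clusters. At these stages Ptcra thus did not follow the T cell clusters, which hold 90.4% of its counts in the second E16.5 library.

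The largest Ptcra sum outside named T cell clusters was Mono/Mast of the second E16.5 library, at 202 CPM. Of its 142 cells, 84 held 5 or more of the 10 genes, with a median of 35761 UMIs, 252 CPM of Ptcra and 2965 CPM of Cpa3, a mast cell protease gene. The other 58 held fewer, with a median of 10514 UMIs, 0 Ptcra counts and 8142 CPM of Cpa3. The median count of the CD90.2 antibody, which binds the product of Thy1 on T lineage cells, was 158.5 in the former and 2.5 in the latter. The 84 and 58 cells were split by the 10 genes without thinning, so their differences in Ptcra and depth follow in part from the split. The first E16.5 library had 161 cells in Mono/Mast and none with 5 or more of the genes. Doublets were not called here, and their part was not tested.

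No antibody against CD3, CD4, CD8 or a TCR chain was among the 29 of the deposited panel. CD90.2 had counts in the second E16.5 library alone, with a median per cell of 184 in TCell6, 124 in TCell4, 103 in TCell1, 44 in TCell3, 40 in TCell5 and 23 in TCell2. Among the other named clusters of that library Mono/Mast had a median of 95, UD1 31.5, and the rest 1 or 2. The T cell clusters with the highest Cd3d levels, TCell4, TCell1 and TCell6, were the 3 with the highest CD90.2.

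Other genes of the pathway were summed by lists. Of the other receptor genes (Trac, Trdc, Tcrg-C3, Tcrg-C4 and Cd247), 1 of 4 tested in the T cell clusters passed at each later stage. It was Trac, the TCR alpha constant gene, which rose by 3.56 ± 0.92, 3.75 ± 0.94 and 3.28 ± 1.04 on the log2 scale (edgeR adjusted p 0.00903, 0.00836 and 0.0494). Trac was listed at 0 in TCell5 of the first E16.5 library, and was at 17.1 CPM in that of the second, 21.8 at E18.5, 25.6 at P0 and 16.0 in adult T/NK. It was at or under 0.4 CPM in TCell1 to TCell4 and at 9.62 CPM in TCell6. Trdc, the TCR delta constant gene, was between 61.5 and 268 CPM in every T cell cluster given in the heat map. Tcrg-C4 was highest in TCell5 of the first E16.5 library at 260 CPM and of the second at 187 CPM, and lowest in TCell2 at 19.7 CPM.

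On these lists the shares called over all genes were again 1.74%, 1.13% and 3.17% for the E18.5, P0 and adult contrasts. Of 14 T cell signalling genes tested in the T cell clusters, 2 rose at E18.5 (Cd2 by 2.22 and Cd7 by 2.46), none passed at P0, and in the adult Cd2 rose by 2.36 and Lat fell by 2.59 on the log2 scale. Of 19 T lineage regulators, Id3, an inhibitor of E proteins, rose by 2.66 at E18.5 and 2.38 in the adult, Tox rose by 2.12 in the adult, and Dtx1, a Notch target, fell by 4.09 and 4.37. At P0 none of the signalling genes or regulators passed in edgeR, and the adjusted p of these 6 genes ran there from 0.0768 for Cd7 to 1 for Lat.

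Of 9 recombination and repair genes tested in the T cell clusters, Xrcc6, a DNA end-binding gene, fell by 2.54 ± 0.74 on the log2 scale at E18.5 (edgeR adjusted p 0.0376). Dntt, which encodes the polymerase that adds bases at the joins, rose by 7.11 ± 1.78 in the adult (adjusted p 0.00387). In that contrast 5 of 7 B cell markers and 6 of 6 neutrophil markers tested also rose, beside 3.17% of all genes called. The part of such RNA in the rise of Dntt was not tested. Dntt was at 46.0 CPM in adult T/NK, at 0 in TCell5 at E18.5 and P0, and under 2 CPM in each T cell cluster of the second E16.5 library. In all HP cells it was at 85.0 CPM in the adult and at most 0.690 CPM in the other libraries, and it was the 1 gene of 50 on these 4 lists that rose in the all-cell test (log2 fold change 9.29 ± 0.86, adjusted p 0.0074), where 2.35% of all genes were called. Skap1, a signalling adaptor, fell there by 4.99 ± 0.81 in the adult (adjusted p 0.0277).

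Markers of other cell types moved with these genes. Summed over 8 innate lymphoid cell (ILC) markers, TCell5 had 3198, 2117, 1686 and 1502 CPM in the first E16.5 library, the second, E18.5 and P0, with all 8 detected in each, beside 110 to 213 CPM in TCell1 to TCell4 and TCell6. Over 9 natural killer (NK) cell markers TCell5 had 818, 1335, 3883 and 2939 CPM and adult T/NK had 3519 CPM with 9 of 9 detected. The same markers summed to between 1718 and 2090 CPM in TCell1 to TCell4 and TCell6, with 3 to 6 of 9 detected, of which Gzma alone was 1458 to 1980 CPM while Ncr1 and Eomes were at 0. The 8 pre-T markers, which include Ptcra, Rag1 and Rag2, summed to 2345 and 2391 CPM in TCell1 and TCell4 and to between 59.9 and 237 CPM in TCell5. TCell5 and T/NK (992 CPM of ILC markers), with the least Ptcra and Rag1, thus had more ILC marker RNA than the other T cell clusters, while the summed NK markers did not separate them. Of the 9 NK markers 6, 4 and 7 rose in the T cell clusters at E18.5, at P0 and in adult marrow (edgeR, beside 1.74%, 1.13% and 3.17% of all genes), with median log2 fold changes of 3.62, 2.50 and 6.66 over the list. Those that rose at each stage were Ncr1, Klrb1c, Klrk1 and Prf1. The part of such cells in the stage differences was not tested.

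Adult T/NK also had 7125 CPM over 6 neutrophil markers and 698 CPM over 10 B cell markers, with every one detected, beside 0 to 91.5 CPM of the former in TCell5. Mast cell markers summed to 2864 CPM in TCell5 of the second E16.5 library and to 279, 245 and 360 CPM in TCell5 of the first, E18.5 and P0. The part of this RNA in the levels of the 10 genes was not tested.

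The genes whose levels were most like those of 5 of the 10 were found by Pearson's r of log2(CPM + 1) over the same 81 sums, among 13985 genes with at least 100 counts. For Rag1 the first was Rag2 (r = 0.93), then Gfra1, Gm37065, Endou and Arpp21. For Ptcra they were Dgkeos (r = 0.88), Mpzl2, Slc16a5, Gm4632 and Ctla4. For Trbc2 they were Lck (r = 0.89), Trbc1, Tcf7, Sh2d2a and Plekha7, for Tcrg-C1 Trdc (r = 0.92), Tcrg-C2, Cd3e, Bcl11b and Gzma, and for Cd3e Tcrg-C2 (r = 0.98), Bcl11b, Trdc, Themis and Gzma. Among the 10 genes themselves r was highest between Tcrg-C2 and Cd3e at 0.98 and lowest between Rag2 and Cd3g at 0.28. Ptcra and Rag1, high together in TCell1 and TCell4, were apart over all sums at 0.51.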

How the data were processed

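Single cells of mouse BM were captured with Chromium 3′ chemistry, and the submitters' processing notes name Cell Ranger 3.1.0, R 4.0, Seurat 3.1.5 and the mm10 build. The deposited values are raw UMI counts per gene and cell, and raw antibody tag counts. The authors removed cells with few UMIs, with a high mitochondrial share or at the top of the distribution of genes or UMIs, the last as putative doublets, and no doublet caller was run here. The deposited fractions of alpha beta and gamma delta TCR genes per cell equalled shares of 10 listed genes in 100% and of 11 listed genes in 99.0% of the HP cells (tolerance 1e-09).

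Cell types were those of the deposited annotation. The 10 genes and the pathway and marker lists were chosen with earlier results of these data known. Named genes were the 10, the genes of those lists, and for Ptcra, Rag1, Trbc2, Tcrg-C1 and Cd3e the 5 genes of highest Pearson's r. Gfra1 and the other genes of highest r were fixed by that rule alone, and Cpa3 was named after its values were seen.

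Counts were summed per library, since cells are not replicates, and tested with edgeR 4.0.16 (R 4.3.3; glmQLFit, TMM, filterByExpr, Benjamini-Hochberg over all genes tested, threshold 0.05), with DESeq2 1.42.0 as an alternative. With 2 E16.5 libraries and 1 per later stage, the E16.5 pair alone gives the spread. Levels carry exact Poisson intervals and shares exact Clopper-Pearson intervals (scipy 1.17.1, numpy 2.4.6, pandas 2.3.3, Python 3.11.15). Thinning drew 1000 UMIs per cell and left out shallower cells. Promoters came from RefSeq, exons from the mm10 gene annotation, and alignments from Biopython 1.88. Levels of the 4 stroma libraries entered no test and are set beside HP levels only under the flagged results. Depth was 13974733 to 127489333 UMIs per library, so the first E16.5 library, with 18 T cluster cells, is the least precise.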

Additional observations from a re-analysis of the deposited data

Results flagged for a closer look

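The 4 stroma libraries (CD45-Ter119- cells) were in no comparison above, and 8 levels in them had a lower interval bound above the limit that a count of 0 allows (3 counts of a library). Ptcra was at 1.65 CPM in the E16.5 stroma library, 2.15 CPM at E18.5, 2.03 CPM at P0 and 1.34 CPM in the adult, beside 1.57, 2.04 and 1.41 CPM outside the T cell clusters of the E18.5, P0 and adult HP libraries. It was seen in 15 of 16, 14 of 15, 17 of 19 and 11 of 16 stroma clusters, with a median of 1 UMI in the cells that had it and at most 12, 19, 18 and 10 UMIs in 1 cell. Trbc2 was at 0.274 CPM in the E16.5, 0.276 CPM in the E18.5 and 0.241 CPM in the P0 stroma library, and Cd3d was at 0.0872 CPM in the P0 stroma library.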

How the results depend on the processing

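No paired analysis was possible because only E16.5 has more than 1 HP library, so the groups compared share fewer than 2 replicate numbers. The TCell5 fit and the settings on shared barcodes, T cell clusters and Mono/Mast were chosen after seeing the data. In all HP cells 0 of the 10 genes were called with edgeR in each contrast. Without a filter on low counts 9, 9 and 9 were called lower at E18.5, P0 and adult, beside 2.48%, 3.65% and 7.75% of all genes, and DESeq2 called 2 in the adult. In the T cell clusters, where 3, 3 and 4 were called, DESeq2 called 0, 0 and 0 and TCell5 alone, where Ptcra, Rag1 and Rag2 could not be fitted, gave 0 and 0 of the other 7, with their median log2 fold change at E18.5 at 0.067. Leaving out 1 E16.5 library moved the median of the 10 genes in all HP cells from −6.17 to 0.63 (E18.5), −5.98 to 0.14 (P0) and −7.74 to −0.42 (adult), and in the T cell clusters from −2.13 to 1.09, −2.24 to 0.80 and −2.88 to 0.21, the higher value each time without the second E16.5 library. Tcrg-C2 in the adult T cell clusters moved from −4.54 to 1.33 in the same way. The cause was not tested. Genes called in all numbered 1, 47 and 378 in all HP cells, 342, 558 and 1133 with DESeq2, 485, 713 and 1515 without a filter and 35, 78 and 425 with RLE size factors. In the T cell clusters they numbered 149, 97 and 272, 16, 15 and 64 with DESeq2, and 155, 259 and 343 without a filter. RLE size factors and leaving out the shallower cell of a shared barcode changed no count of the 10 genes called. Without the T cell clusters the median ratio of the second E16.5 library to the next highest was 12.4 in place of 50.3. Cells with both Ptcra and Rag1 rose from 5.89% at 1000 UMIs to 15.6% at 2000 and 55.7% without thinning, and cells with a beta and a gamma constant gene from 50.9% to 70.6% and 93.9%. By Spearman's rho the genes most like a member changed for 4 of 5, and with clusters of at least 50 cells 4 or 5 of each 5 genes were shared. At 18 T cluster cells in the first E16.5 library, a count of 0 at 1000 UMIs per cell allows a share of up to 16.7% (3 cells of the total).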
